A study of Mus musculus with 6 samples.

Results

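Bile acids are made in hepatocytes from cholesterol, and their synthesis is held back by the bile acids themselves. Expression of 10 genes of this axis was examined in mouse liver tumors, namely the synthesis and conjugation enzymes Cyp7a1, Cyp8b1, Cyp27a1, Cyp7b1, Hsd3b7, Akr1d1, Slc27a5 and Baat and the nuclear receptors Nr1h4 (FXR) and Nr0b2 (SHP). The genes were picked by symbol, and 10 of 10 were found among the 30236 rows of the expression table. Top1mt encodes the topoisomerase that is found only in mitochondria, and Top1mt-/- mice lack it in every cell. RNA had been sequenced from 3 tumors of WT mice and 3 tumors of Top1mt-/- mice, called Top1mt-KO here. All were male C57BL/6 littermates, 22 weeks old at collection. Both genotypes had received diethylnitrosamine, a liver carcinogen, on postnatal day 14, and carbon tetrachloride, a liver toxin, biweekly for 14 weeks from week 8. Whether biweekly means 2 times per week or every 2 weeks is not stated. No normal liver and no untreated tumor is among the libraries, so the values compare tumors with tumors. Nothing in the labels says whether the tumors of 1 genotype came from separate mice, so p-values measure the spread between these libraries only.

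In the classical route, Cyp7a1 opens the pathway and sets its rate, and Cyp8b1 steers the product toward cholic acid. In the alternative route, Cyp27a1 in mitochondria and then Cyp7b1 oxidize the sterol first. Hsd3b7 and Akr1d1 modify the ring system in both routes, and Slc27a5 and Baat activate bile acids with coenzyme A and join them to taurine or glycine. Bile acids bind FXR, which switches on Nr0b2, and its product SHP lacks a DNA-binding domain of its own and represses Cyp7a1 and Cyp8b1 through NR5A2 and HNF4A. Bile acids reaching the gut also induce FGF15, which signals back to hepatocytes through FGFR4 and KLB.

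The expression values were normalized and placed on a log2 scale by the authors. Read totals cannot be taken from them, which leaves the depth unknown, and the transform that produced them is not named. A difference of 1 therefore equals a doubling only as far as that transform is a plain log2. Genotypes were compared with limma over the 22677 genes left after the 25% of rows with the lowest mean were set aside, and all 10 genes of the axis passed this filter.

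The promoters of the repressor Nr0b2 and of its target Cyp8b1 are shown because these genes deviated from their means in opposite directions in 4 of the 6 tumors. Hsd3b7, Baat and Nr1h4 deviated from Nr0b2 in the same way in the same tumors, so this pattern is not particular to the pair shown. Of the 10 genes, 6 had a promoter entry in RefSeq (build GRCm38.p6). Each sequence holds the 250 bases before the gene's start, read 5′ to 3′ on the gene's strand, with matches to CAAGGNCA (an element that NR5A2 can bind) and to TATAAA in capitals. The Nr0b2 promoter lies at chr4:133553126-133553375 on the plus strand and the Cyp8b1 promoter at chr9:121916306-121916555 on the minus strand.
Nr0b2: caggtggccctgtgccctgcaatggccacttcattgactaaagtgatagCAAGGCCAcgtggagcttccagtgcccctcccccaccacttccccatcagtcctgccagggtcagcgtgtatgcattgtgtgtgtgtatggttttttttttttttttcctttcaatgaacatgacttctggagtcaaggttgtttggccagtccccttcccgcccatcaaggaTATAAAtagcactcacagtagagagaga
Cyp8b1: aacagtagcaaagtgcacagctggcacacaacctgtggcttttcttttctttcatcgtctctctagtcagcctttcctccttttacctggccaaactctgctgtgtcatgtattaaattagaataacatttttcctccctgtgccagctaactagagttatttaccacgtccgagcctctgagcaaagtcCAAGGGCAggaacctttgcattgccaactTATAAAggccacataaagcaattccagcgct

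With both strands searched, CAAGGNCA was present in these 2 of the 6 promoters and in 5.53% of 32851 RefSeq promoters of the same length. TATAAA was present in the same 2 promoters and in 12.4% of all. The unit AGGTCA, which many nuclear receptors recognize, was present in the promoters of Akr1d1 and Nr1h4 and in 14.0% of all. The inverted repeat of AGGTCA with a spacer of 1 base, IR1, which contains AGGTCA and is an optimal site of FXR with RXRA, was present in 0 of the 6. It was present in only 2 of the 32851 RefSeq promoters (0.00609%), so a count of 0 could hardly have come out otherwise and says nothing about these genes. A match describes the letters of this window and is not a measured binding site.

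The targeted gene and the libraries were examined first. In replicate order, Top1mt was 7.71, 5.99 and 8.01 for the WT label and 5.58, 6.41 and 6.32 for the Top1mt-KO label (exact permutation p = 0.3). The library labelled WT replicate 2 lay below KO replicates 2 and 3, against its label, and the log2 fold change of -1.13 was -1.76 without it and -0.75 without WT replicate 3. Every direction given here rests on the labels. KO replicate 1 stood apart, since Gm42418 took 17.7% of its summed linear values and 0.387% at most in the others. Markers of cell types were read next. The mean log2 value of 12 hepatocyte markers ran from 15.05 to 15.38 in WT and from 14.83 to 15.36 in KO. Over both genotypes it was 5.90 to 7.37 for 8 bile duct markers and 9.10 to 10.30 for 6 macrophage markers. For 6 endothelial markers it was 9.73 to 10.17, and for 8 stellate and fibroblast markers 8.69 to 10.23. Markers of T and B cells lay at 3.41 to 4.49. The lists hold genes of unlike abundance, and the values are not per transcript length. The level of a list therefore does not measure its cell type against another. In bulk tumor RNA, fewer hepatocytes and less RNA per hepatocyte cannot be told apart.

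By limma, 0 of the 10 genes of the axis passed an adjusted p of 0.05, with 0.999 as the smallest value found. None of the 10 reached an unadjusted p under 0.05 either, where 4.34% of all genes tested reached that level (1.79% higher and 2.56% lower in KO) and 0.0% the adjusted one. The groups overlapped for all 10 genes, while over all genes tested 8.28% did not overlap. The mean was higher in KO for Cyp8b1, Hsd3b7, Baat and Nr1h4 and lower for the other 6, and 47.7% of all genes tested had a higher mean in KO. The median log2 fold change of the 10 genes was -0.11, beside -0.02 over all genes tested. Leaving out KO replicate 1 gave 0.04, leaving out WT replicate 1 gave 0.02 and leaving out WT replicate 2 gave -0.28.

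**Figure D1:**
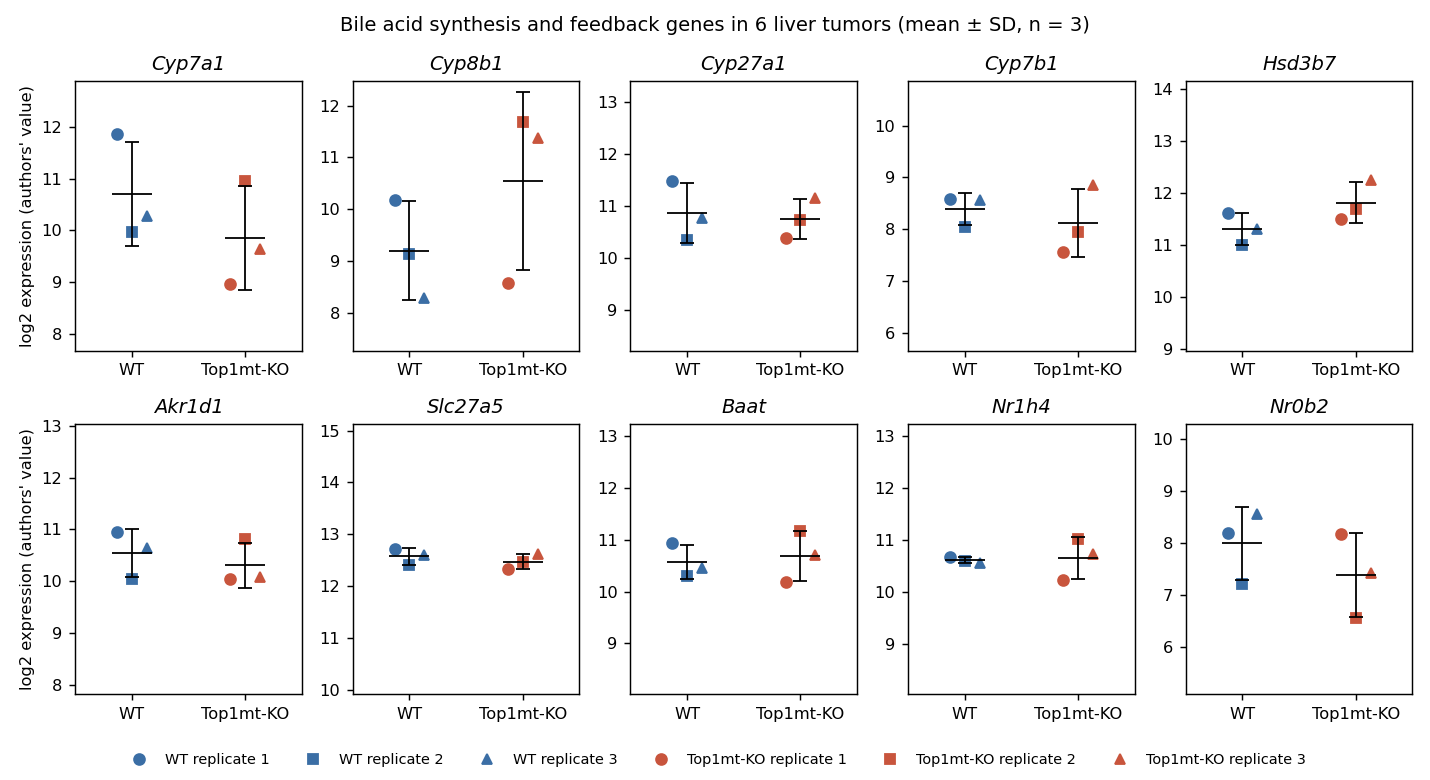
Log2 expression (vertical axis, each panel spanning the same number of log2 units) of the 10 genes in each tumor library, by genotype. Symbols are libraries, horizontal bars the mean and error bars the SD of 3 libraries. The WT and KO libraries overlap in every panel, and the widest spread is that of Cyp8b1 in KO, from 8.57 to 11.68.

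The genes of the classical route varied most. In replicate order, which is kept throughout, Cyp7a1 had log2 values of 11.85, 9.98 and 10.28 in the WT tumors and 8.97, 10.95 and 9.65 in the KO tumors. The highest value was in a WT tumor and the lowest in a KO tumor, but KO replicate 2 lay above 2 of the WT libraries. The mean was 10.70 ± 1.01 (SD, n = 3) in WT against 9.86 ± 1.01 (SD, n = 3) in KO. The log2 fold change was -0.85 (95% confidence interval -2.23 to 0.53, adjusted p = 0.999 by limma). A single library moved this value by more than 1.5 times, to -0.27 without WT replicate 1, to -0.41 without KO replicate 1 and to -1.40 without KO replicate 2.

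Cyp8b1 was 10.18, 9.14 and 8.29 in WT against 8.57, 11.68 and 11.37 in KO. KO replicates 2 and 3 lay above all WT libraries, whereas KO replicate 1 lay below all but WT replicate 3. The mean was 9.20 ± 0.95 (SD, n = 3) in WT against 10.54 ± 1.71 (SD, n = 3) in KO. The log2 fold change was 1.34 (95% confidence interval -0.54 to 3.22, adjusted p = 0.999 by limma). Without KO replicate 1 the log2 fold change was 2.32 (unadjusted p = 0.00266 and adjusted p = 0.503 by limma). Leaving out KO replicate 2 gave 0.77, and leaving out WT replicate 3 gave 0.88.
The range of Cyp8b1 over the 6 tumors was 3.39 on the log2 scale, 10.5 times after return to the linear scale. Its SD of 1.44 was larger than that of 99.1% of the genes tested. The range of Cyp7a1 was 2.88, with an SD larger than that of 95.4% of the genes tested. The distance between the group means made up 25.9% of the variation of Cyp8b1 and 21.0% of that of Cyp7a1. The median of this share over all genes tested was 12.3%. Such a share is above 0 even where genotype has no effect.

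The enzymes of the alternative route lay closer together. Cyp27a1, the mitochondrial sterol hydroxylase, was 11.49, 10.34 and 10.77 in WT against 10.38, 10.72 and 11.15 in KO. Its groups overlapped over almost their whole range, and the log2 fold change was -0.12 (95% confidence interval -0.83 to 0.60), with the sign turning to 0.19 without WT replicate 1 and 0.07 without KO replicate 1. Cyp7b1, which hydroxylates the oxysterols formed by Cyp27a1, was 8.58, 8.04 and 8.57 in WT against 7.57, 7.95 and 8.85 in KO. KO replicates 1 and 2 lay below all WT libraries and KO replicate 3 above them. Its log2 fold change was -0.27 (95% confidence interval -1.03 to 0.48), which was -0.64 without KO replicate 3, -0.45 without WT replicate 2, -0.18 without WT replicate 1, WT replicate 3 or KO replicate 2, and 0.0042 without KO replicate 1. The SD over the 6 libraries was 0.44 for Cyp27a1 and 0.48 for Cyp7b1, larger than that of 56.3% and 60.9% of the genes tested. Cyp7b1 shares its locus with the small nuclear RNA gene Gm23686 on the same strand.

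Among the enzymes that modify the ring, Hsd3b7, a steroid dehydrogenase of the endoplasmic reticulum, was 11.61, 10.997 and 11.32 in WT against 11.49, 11.69 and 12.26 in KO. Only KO replicate 1 lay within the WT range. The mean was 11.31 ± 0.31 (SD, n = 3) in WT against 11.81 ± 0.40 (SD, n = 3) in KO. The log2 fold change was 0.51 (95% confidence interval -0.05 to 1.06, adjusted p = 0.999 by limma), and it was 0.28 without KO replicate 3. The distance between the group means made up 43.1% of its variation, the most of the 10 genes, beside a median of 12.3% over all genes tested. Hsd3b7 shares its locus with Gm49388 on the same strand and 9430064I24Rik on the other, and the strand setting of the counting is not stated, so reads of these genes may not be told apart. Akr1d1, the steroid reductase that bends the ring system, was 10.95, 10.05 and 10.64 in WT against 10.04, 10.81 and 10.09 in KO, with a log2 fold change of -0.24 (95% confidence interval -0.89 to 0.41) that was -0.04 without WT replicate 1, -0.10 without KO replicate 1, -0.13 without KO replicate 3 and -0.49 without WT replicate 2 or KO replicate 2. It overlaps the processed pseudogene Gm7463 on its own strand.

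Of the conjugation enzymes, Slc27a5 varied least of the 10 genes. Slc27a5, the ligase that attaches coenzyme A to bile acids, was 12.72, 12.41 and 12.59 in WT against 12.33, 12.46 and 12.62 in KO. Its whole range was 0.39, and its SD of 0.15 was larger than that of only 11.5% of the genes tested. The log2 fold change was -0.11 (95% confidence interval -0.49 to 0.28), and it lay between -0.19 without WT replicate 2 and -0.03 without WT replicate 1. Baat, the transferase that completes conjugation, was 10.94, 10.30 and 10.46 in WT against 10.19, 11.16 and 10.71 in KO. Both the lowest and the highest of these were KO libraries, and the log2 fold change of 0.12 (95% confidence interval -0.50 to 0.74) turned to -0.12 without KO replicate 2 and -0.02 without WT replicate 2, and was 0.37 without KO replicate 1.

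In the feedback pair, the receptor had a narrow spread and the repressor a wide one. Nr1h4 was 10.67, 10.59 and 10.55 in WT, an SD of 0.06, and 10.22, 11.03 and 10.72 in KO, an SD of 0.41. The KO libraries lay on both sides of the WT libraries, and the log2 fold change was 0.05 (95% confidence interval -0.42 to 0.52), with -0.14 without KO replicate 2 and 0.27 without KO replicate 1. Nr0b2 was 8.20, 7.22 and 8.57 in WT against 8.18, 6.57 and 7.43 in KO. The lowest value was in KO replicate 2, the tumor with the highest Cyp8b1, and the highest was in WT replicate 3, the tumor with the lowest Cyp8b1. The log2 fold change of Nr0b2 was -0.60 (95% confidence interval -1.67 to 0.47, adjusted p = 0.999 by limma), and it was -0.19 without KO replicate 2, -0.32 without WT replicate 3, -0.99 without WT replicate 2 and -1.0 without KO replicate 1. Its range was 2.0 on the log2 scale, and only Cyp8b1 and Cyp7a1 of the 10 genes had wider ones.

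**Figure D2:**
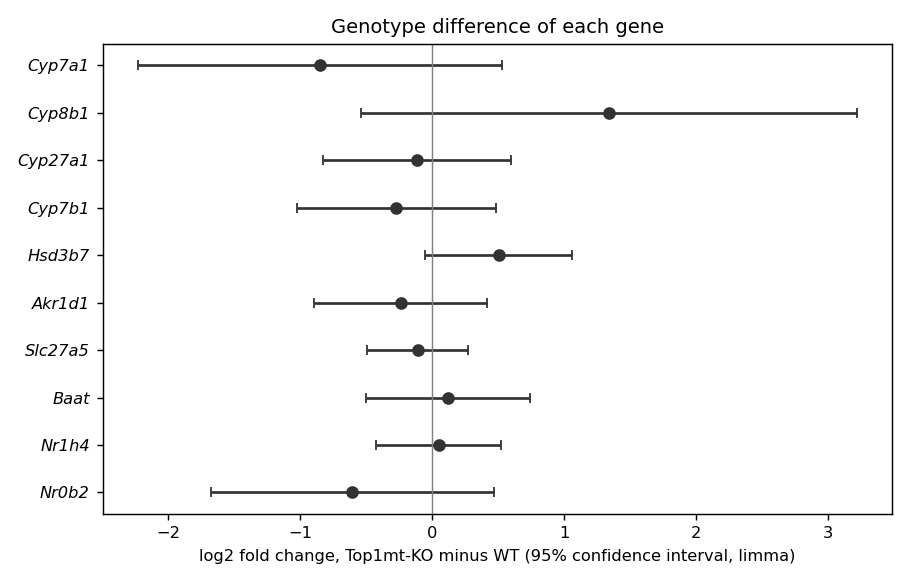
Log2 fold change of each gene (horizontal axis, Top1mt-KO minus WT) with its 95% confidence interval from limma, 3 libraries against 3. All 10 intervals span 0, that of Hsd3b7 by the least (-0.05 to 1.06) and those of Cyp8b1 and Cyp7a1 are the widest.

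The intervals also give what the 6 libraries could resolve. For Slc27a5 and Nr1h4 they left room for differences down to -0.49 and up to 0.52. For Cyp8b1 the upper bound was 3.22 and for Cyp7a1 the lower bound was -2.23. A p that misses the threshold here does not show that the genotypes were alike.

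Tumor by tumor, several libraries were high or low for most of the axis at once. WT replicate 1 was above the gene's own mean over the 6 libraries in 10 of 10 genes, where 50.4% of all genes tested were above theirs in that library. WT replicate 2 was above in 0 of 10 (47.7% of all genes tested) and KO replicate 1 in 1 of 10 (48.2% of all genes tested), the exception being Nr0b2. KO replicates 2 and 3 were above in 6 and 7 of 10 (46.6% and 49.9% of all genes tested) and WT replicate 3 in 5 of 10 (50.9%). KO replicate 1 held the lowest value for 6 of the 10 genes, a count for which the share over all genes tested was not taken. This is also the library in which Gm42418 took 17.7% of the summed values, and its part in the low values was not tested. Its hepatocyte markers, with a mean log2 value of 15.36, were the second highest of the 6 libraries.

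**Figure D3:**
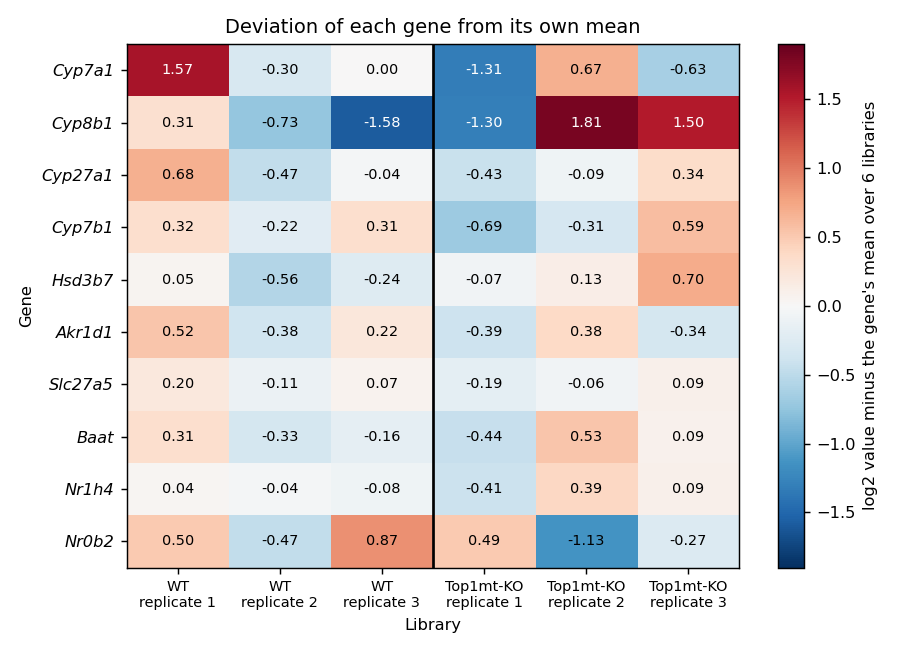
Log2 value of each gene (rows) in each library (columns) minus the gene's mean over the 6 libraries, with the number in each cell, WT to the left of the black line. WT replicate 1 is above the mean in all 10 rows and WT replicate 2 in none. Nr0b2 has the opposite sign to Cyp8b1 in WT replicate 3 and in all 3 KO libraries, as it has to Hsd3b7, Baat and Nr1h4.

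Pairs of genes were then compared within each library, which takes out any scaling of the library as a whole. The values are not per transcript length, so only the change of such a difference between libraries is read. The difference Cyp8b1 minus Cyp7a1, which sets the cholic acid enzyme against the enzyme that opens the route, was -1.67, -0.84 and -1.99 in WT replicates 1, 2 and 3. It was -0.40, 0.73 and 1.73 in KO replicates 1, 2 and 3, so every KO library lay above every WT library. The mean was -1.50 ± 0.59 (SD, n = 3) in WT against 0.68 ± 1.07 (SD, n = 3) in KO. These lie 2.19 apart on the log2 scale, with p = 0.1 in a two-sided exact permutation test, which 3 against 3 cannot go below. The same comparison of Cyp7a1 with every other gene tested gave groups that did not overlap for 2.78% of genes. The difference was 1.66 without KO replicate 3 and 2.73 without KO replicate 1.

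Of the other differences, Cyp7b1 minus Cyp7a1 was -3.28, -1.94 and -1.71 in WT against -1.40, -3.00 and -0.80 in KO, with overlapping groups whose means lay 0.58 apart (p = 0.5 in the exact permutation test). That value was 0.09 without WT replicate 1, 0.11 without KO replicate 3, 0.88 without WT replicate 3 and 1.21 without KO replicate 2. Nr0b2 minus Nr1h4, the repressor against the receptor that switches it on, was -2.47, -3.37 and -1.99 in WT against -2.04, -4.46 and -3.29 in KO. It ran lowest in KO replicate 2, and the group means lay -0.65 apart with overlap (p = 0.6 in the exact permutation test), where 5.82% of genes set against Nr1h4 did not overlap. The distance was -0.05 without KO replicate 2, -0.34 without WT replicate 3, -1.03 without WT replicate 2 and -1.27 without KO replicate 1. Over all 45 pairs that the 10 genes form, 4 had groups that did not overlap, where 6.1% of the differences between one of these genes and any other gene tested did not. These 4 were Cyp8b1 with Cyp7a1 and Hsd3b7 with Cyp27a1, Cyp7b1 and Slc27a5, and the Hsd3b7 pairs were named after their values were seen.

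**Figure D4:**
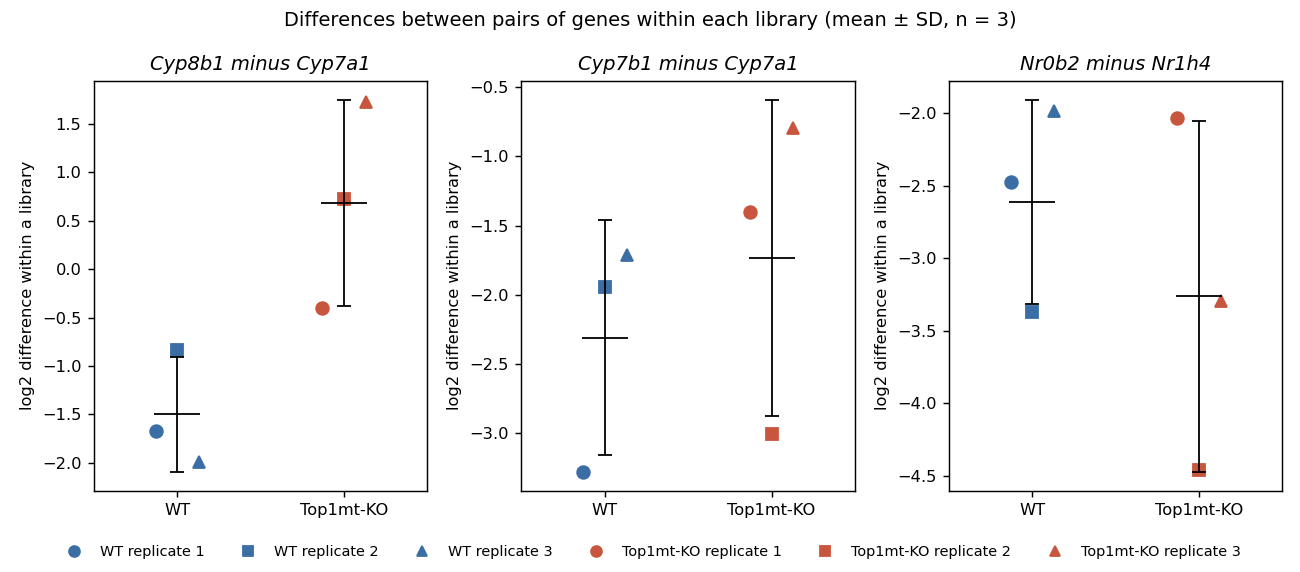
Difference between the log2 values of 2 genes within a library (vertical axis), by genotype. Symbols are libraries, horizontal bars the mean and error bars the SD of 3 libraries. For Cyp8b1 minus Cyp7a1 the WT libraries lie between -1.99 and -0.84 and the KO libraries between -0.40 and 1.73, and in the other panels the groups overlap.

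Relations along the feedback loop were computed for 5 pairs of genes over the 6 libraries. Nr0b2 and Cyp8b1 had a Pearson r of -0.73 (exact permutation p = 0.110, 0.183 after Benjamini-Hochberg over the 5 relations). Their Spearman rho was -0.71 (exact permutation p = 0.136, adjusted 0.340). Without WT replicate 3 and KO replicate 2, the libraries farthest from the median of Nr0b2, r was -0.28. Leaving out those libraries also narrows the range of Nr0b2, and with any 1 library left out r stayed between -0.88 and -0.52. Taken as deviations from the genotype means, r was -0.66. Nr0b2 and Cyp7a1 had an r of -0.08 (exact permutation p = 0.876, adjusted 0.876) and a rho of 0.09 (exact permutation p = 0.919, adjusted 0.919). Here r was 0.27 without the same libraries and -0.35 within genotypes.
Nr1h4 and its target Nr0b2 had an r of -0.71 (exact permutation p = 0.103, adjusted 0.183) and a rho of -0.60 (exact permutation p = 0.242, adjusted 0.403). Without KO replicates 1 and 2 this r was -0.39, and within genotypes it was -0.75.
Cyp7a1 and Cyp8b1 had an r of 0.37 (exact permutation p = 0.479, adjusted 0.599) and a rho of 0.31 (exact permutation p = 0.564, adjusted 0.705). It was 0.20 without WT replicate 1 and KO replicate 1, and 0.78 within genotypes. Cyp27a1 and Cyp7b1 of the alternative route had an r of 0.77 (exact permutation p = 0.0792, adjusted 0.183) and a rho of 0.77 (exact permutation p = 0.103, adjusted 0.340). This r was 0.66 without WT replicate 1 and KO replicate 3 and 0.78 within genotypes. None of the 5 relations passed 0.05, adjusted or not. All points share the library and its normalization.

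**Figure D5:**
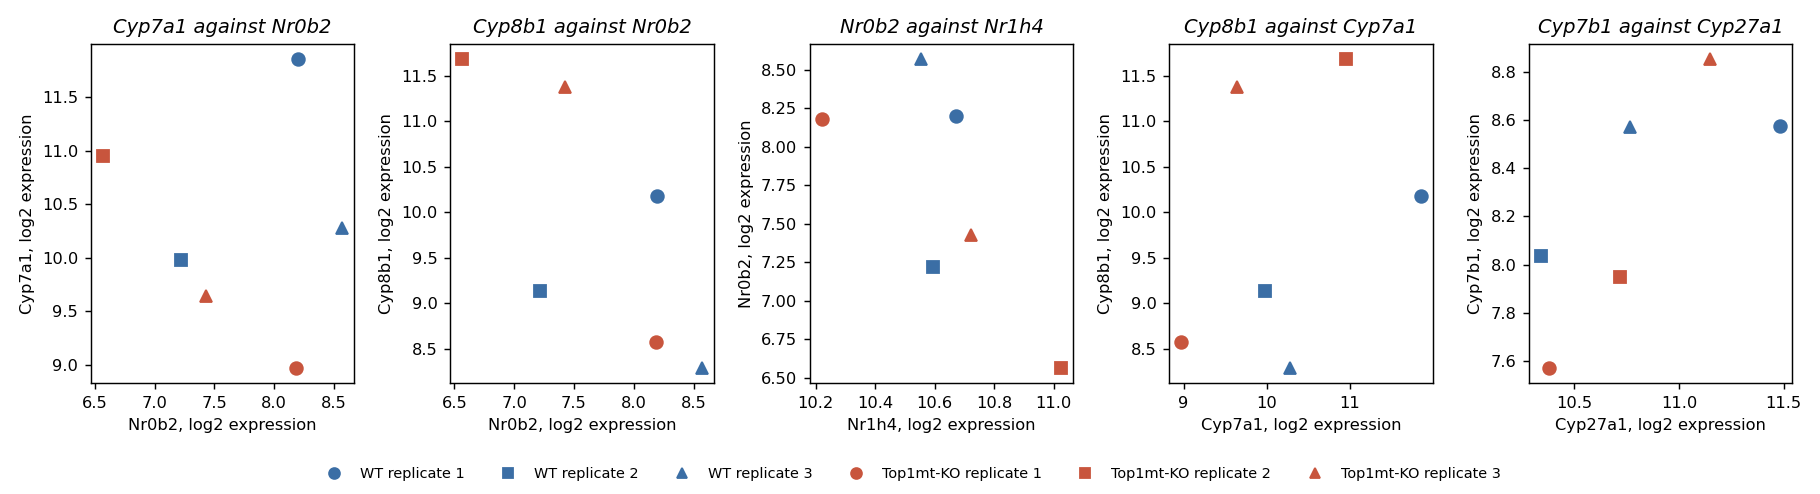
Log2 expression of the second gene (vertical axis) against the first (horizontal axis) for the 5 pairs, each symbol 1 tumor library. KO replicate 2 combines the lowest Nr0b2 (6.57) with the highest Cyp8b1 (11.68), and WT replicate 3 the highest Nr0b2 (8.57) with the lowest Cyp8b1 (8.29).

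The genes whose values ran most like those of Cyp7a1 over the 6 libraries were Rps6ka5, Aldh7a1 and Dennd2a, with Pearson r of 0.997, 0.991 and 0.988, and 74 genes tested had an r above 0.95. For Nr0b2 they were F2rl3, Fbxo11 and Chrd, with r of 0.991, 0.990 and 0.984, and 32 genes were above 0.95. With 6 libraries and 22677 genes such values are a description only.

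The remaining enzymes of bile acid synthesis, from a list of 13 that covers side-chain shortening, oxysterol hydroxylases and muricholic acid formation, had a median log2 fold change of -0.0044, with 6 genes higher and 7 lower in KO. That median was -0.17 without KO replicate 2 and 0.18 without KO replicate 1. None of the 13 reached an unadjusted p under 0.05. The smallest p values belonged to Acot8, a peroxisomal thioesterase, and Cyp2c70, which forms muricholic acids in the mouse. Acot8 was 7.52, 7.0 and 7.17 in WT against 6.50, 6.76 and 7.08 in KO (log2 fold change -0.45, 95% confidence interval -0.99 to 0.10). Cyp2c70 was 12.13, 11.87 and 11.89 in WT against 12.23, 11.98 and 13.28 in KO (log2 fold change 0.53, 95% confidence interval -0.20 to 1.27). KO replicate 3 carried the Cyp2c70 difference, which was 0.14 without it.

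Of 23 partners and inputs of FXR and SHP, 5 had a higher and 18 a lower mean in KO, with a median of -0.13, and 0 had an adjusted p under 0.05 by limma. An unadjusted p under 0.05 was reached by 2, Nfil3 and Dbp, beside 4.34% of all genes tested. Their products act in opposition at the same DNA element, that of Dbp as an activator of Cyp7a1. Nfil3 was 6.55, 5.68 and 6.84 in WT against 7.04, 7.06 and 9.15 in KO, so that the groups were separate (a log2 fold change of 1.39 with a standard error of 0.58, adjusted p = 0.999 by limma). Dbp was 10.51, 11.01 and 10.49 in WT against 9.79, 9.97 and 6.63 in KO, also without overlap (a log2 fold change of -1.87 with a standard error of 0.79, adjusted p = 0.999 by limma). KO replicate 3 stood apart for both, and without it the log2 fold changes were 0.69 and -0.78. The unadjusted p of Nfil3 was above 0.05 without the variance trend (0.0740), without the filter (0.0581) and without WT replicate 1, WT replicate 2 or KO replicate 3. That of Dbp was above 0.05 without the trend (0.0815), without the filter (0.0639) and without any 1 of the WT libraries. Ppara and Nr1h3 (LXRα) also did not overlap, with log2 fold changes of -0.41 and -0.13. These 4 of 23 genes stand beside 8.28% of all genes tested. For the factors through which SHP acts, the log2 fold change was -0.26 (95% confidence interval -0.68 to 0.17) for Nr5a2 and -0.17 (95% confidence interval -0.63 to 0.29) for Hnf4a. The last 4 genes were named after their values were seen.

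On the hepatocyte side of the FGF15 signal, of 4 genes, Fgfr4, Klb, Ptpn11 and Frs2, 0 had an unadjusted p under 0.05, and Fgf15 itself was not analysed here. Fgfr4, the receptor, was 9.20, 8.63 and 9.06 in WT against 9.08, 8.95 and 9.36 in KO (log2 fold change 0.17, 95% confidence interval -0.27 to 0.61), and 0.00038 without WT replicate 2. Frs2, its docking protein, had a log2 fold change of -0.11 (95% confidence interval -0.42 to 0.19).

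Among 11 targets of FXR, of which Mafg and Zfp36l1 are also in the list of partners, the median log2 fold change was -0.15. Here 4 genes were higher and 7 lower. By limma, 0 had an adjusted p under 0.05 and 1 an unadjusted p under 0.05, beside 4.34% of all genes tested. That gene was Abcb11, the bile salt export pump. Abcb11 was 12.68, 12.35 and 12.52 in WT against 12.90, 12.79 and 13.26 in KO, and every KO library lay above every WT library (a log2 fold change of 0.47 with a standard error of 0.19, adjusted p = 0.999 by limma). Vldlr, Apoc2 and Abcc2 had larger log2 fold changes in the other direction and were named after their values were seen. Vldlr, a lipoprotein receptor, had a log2 fold change of -1.15 (95% confidence interval -2.40 to 0.10). Apoc2, an activator of lipoprotein lipase, had one of -0.54 (95% confidence interval -1.94 to 0.86) and Abcc2, a canalicular export pump, one of -0.51 (95% confidence interval -1.30 to 0.29).
Of 14 bile acid and sterol transporters, 7 were higher and 7 lower. An unadjusted p under 0.05 by limma was reached by 2, Abcb11 and Slc10a1, beside 4.34% of all genes tested. Abcb11, Abcb4, Abcc2, Slc51a and Slc51b are also in the list of FXR targets, so the call of Abcb11 is counted in both lists. The median log2 fold change of the 14 transporters was -0.0014 and had no stable direction, as leaving out KO replicate 2 gave -0.37 and leaving out WT replicate 1 gave 0.22. Slc10a1 (NTCP) takes bile acids up from the blood. It was 11.45, 11.07 and 11.17 in WT against 11.67, 12.04 and 11.40 in KO, with KO replicate 3 inside the WT range (a log2 fold change of 0.47 with a standard error of 0.20, adjusted p = 0.999 by limma). For both genes the unadjusted p was above 0.05 with quantile normalization, without the variance trend, with the replicate block (0.0668 for Abcb11 and 0.0628 for Slc10a1) and without WT replicate 2 or WT replicate 3. It was also above 0.05 for Abcb11 without KO replicate 3, and for Slc10a1 without the filter, KO replicate 1 or KO replicate 2.

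Cyp7a1 is expressed mainly near the central vein, so markers of that zone are given beside it. Of 9 pericentral markers tested, 8 were lower in KO and 4 had an unadjusted p under 0.05, namely Oat, Slc1a2, Glul and Cyp2e1, where 2.56% of all genes tested were lower at that level. The count was 2 without the variance trend, with quantile normalization, without the filter, with the replicate block and without WT replicate 1, WT replicate 3 or KO replicate 1, and it was 6 without WT replicate 2. The mean log2 value of the 9 was 10.13, 9.23 and 10.01 in WT against 8.86, 9.04 and 9.34 in KO. The median of their log2 fold changes was -0.47 and -1.01 without WT replicate 2. One further listed marker, Rhbg, was not analysed here. Periportal markers ran from 11.54 to 12.16 in WT and from 11.57 to 12.19 in KO, with a median log2 fold change of 0.01 over 8 genes that was -0.29 without KO replicate 2 and 0.20 without KO replicate 3. Other cell types moved beside the pericentral markers. The mean log2 value of 8 bile duct markers was 7.02, 6.39 and 7.37 in WT against 5.90, 6.45 and 6.27 in KO, with 4 higher and 4 lower. Krt19 (log2 fold change -2.68, groups separate) and Krt7 (-2.20) reached an unadjusted p under 0.05, where 4.34% of all genes tested did in either direction. Of 8 stellate and fibroblast markers 7 were lower in KO, with a median log2 fold change of -0.42 that turned to 0.11 without KO replicate 1. The part of zonation and of these cell types in the values of Cyp7a1 was not tested. Among inflammatory cytokines, which can repress Cyp7a1, the mean log2 value of 5 ran from 2.64 to 3.76 in WT and from 2.91 to 3.01 in KO, and 0 of 5 had an unadjusted p under 0.05. Of these, 2 were higher and 3 lower in KO. The count under 0.05 was 1 without the variance trend and without WT replicate 3, and under no other alternative was any counted. Tnf was 3.16, 3.63 and 4.08 in WT against 2.53, 2.83 and 2.85 in KO, so its groups were separate. Its log2 fold change was -0.89 (unadjusted p = 0.085 by limma), and it was named after its values were seen. Ifng ran from -0.19 to 0.03 over the 6 libraries and Il6 from -0.09 to 1.10, so low that a difference might not show. The part of cytokines in the values of Cyp7a1 was not tested.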

How the data were processed

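RNA-seq libraries of 6 liver tumors were grouped by genotype from the sample titles. The deposited values are log2 expression by gene symbol, from -2.24 to 22.0. According to the study's methods, reads were trimmed with Trimmomatic, aligned with BWA to a mouse genome named Mm 8 there, restricted to unique hits and counted with featureCounts. The submitters' processing notes name STAR 2.5.1 and GRCm38 instead, so the aligner and build are unsettled. Read totals are not in these values, so no count model was run. Left unused were 3 unnamed columns with 24 stray values. A further 5 symbols have repeated rows.

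The genotype test was limma 3.58.1 (R 4.3.3, lmFit, eBayes with trend) and Benjamini-Hochberg adjustment over 22677 genes, with a threshold of 0.05. The procedure was run on simulated data with independent noise and with shifts larger than any log2 fold change of the 10 genes. How well it finds differences of the sizes seen here was not measured. Single values were compared by exact permutation over 20 rearrangements and correlations over 720 pairings. Deviations of libraries with the same number correlated at -0.12, -0.08 and 0.05, and replicate numbers were not taken as pairs. Named genes are the 10 genes of the axis, Top1mt and, per pathway list, those at an unadjusted p under 0.05 or else the 2 with the smallest p; further list genes were named after their values were seen. For Cyp7a1 and Nr0b2 the 3 genes with the highest r were named. The genes of the axis and all lists were chosen with earlier results of these data known. Alternatives were no trend, quantile normalization, no filter, a filter at the median, the replicate block, each library left out, and 2 libraries left out together. Promoters came from RefSeq on GRCm38.p6 and overlapping genes from GENCODE M21 on GRCm38.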

Additional observations from a re-analysis of the deposited data

How the results depend on the processing

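Of the 10 genes, 0 had an adjusted p under 0.05 under any alternative, the smallest being 0.503 for Cyp8b1 without KO replicate 1. At an unadjusted p under 0.05 there were 0 to 2 with one library left out, and 2 (Cyp8b1 and Nr0b2) without WT replicate 2 and KO replicate 1 together. Over all genes, 4 had an adjusted p under 0.05 with no filter and 0 to 1 with one library left out. With a filter at the median, 590 of the 15118 genes then tested had an unadjusted p under 0.05, beside 985 of 22677 in the main fit. With one library left out, the log2 fold change ran from -0.38 to 0.19 for Cyp27a1, from -0.64 to 0.0042 for Cyp7b1, from -0.12 to 0.37 for Baat and from -0.14 to 0.27 for Nr1h4, and r of Nr0b2 with Cyp7a1 from -0.53 to 0.25. The median of the pericentral markers ran from -1.01 to -0.44. Cyp7a1, Cyp8b1, Hsd3b7, Akr1d1, Slc27a5 and Nr0b2 kept their direction under all 12 alternatives, and Top1mt ran from -1.76 to -0.75. Without WT replicate 2 and KO replicate 1 together, Cyp8b1 minus Cyp7a1 differed by 3.06 and Nr0b2 minus Nr1h4 by -1.65 between genotypes. The causes were not tested. Gene lists were followed through the alternatives after the data were seen. The replicate block ended the unadjusted calls of Abcb11 and Slc10a1, moved the pericentral count from 4 to 2, transport from 2 to 1 and bile duct from 2 to 3, and changed no call among the 10 genes, leaving the difference of Cyp8b1 minus Cyp7a1 at 2.19 and the median of the 10 genes at -0.11. Depth is unknown, so the precision rests on 3 libraries per genotype.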
